A study of Homo sapiens with 6 samples.

Results

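The 42 genes described here make up the NF-kB signalling pathway and its feedback targets: 9 adaptors, 11 kinases and kinase-complex components, 5 subunits of the transcription factor, 9 inhibitors and regulators, and 8 further target genes. They were taken by name from 27738 genes in a comparison of U87 cells, an established human glioblastoma line. The comparison set 3 libraries labelled EGFR+vIII TLR2 KO against 3 labelled EGFR+vIII. By their labels both groups carry EGFR, the epidermal growth factor receptor, and vIII, its constitutively active deletion mutant, and they differ in the knockout of TLR2, a cell surface receptor of innate immunity. The labels give neither how the knockout was made nor whether it is a clonal line. They also leave unsaid whether libraries of the same group are separate cultures, and p-values therefore reflect only the variation among these libraries, which can be technical. RNA came from whole cultures, so a change in every cell and a change in a share of the cells cannot be told apart.

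NF-kB is a family of dimeric transcription factors that inhibitors of the IκB family hold in the cytoplasm. Toll-like receptors signal through adaptors such as MYD88 and TICAM1, then through IRAK kinases and TRAF ubiquitin ligases, to the IκB kinase complex, which marks IκB for destruction and frees the dimer. A slower, non-canonical arm runs through the kinase MAP3K14 to RELB and NFKB2, and TRAF2, TRAF3, BIRC2 and BIRC3 keep MAP3K14 low in resting cells. Many NF-kB targets are themselves inhibitors of the pathway, among them NFKBIA and TNFAIP3, so a rise in their mRNA is a widely used readout of NF-kB activity. In glioblastoma the pathway is known for its link to the mesenchymal state and to inflammatory gene expression.

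All values come from the authors' deposited table of their own comparison, which lists RefSeq transcript accessions and gives no value for a library. Each gene is represented by its accession with the highest base mean, which is the mean over the 6 libraries of counts divided by size factors. Fold changes are read as knockout over EGFR+vIII, as the table's title orders them. The targeted gene gives no check of this order: all 8 accessions of TLR2 are listed at 0 in the authors' deposited table. With the opposite order every direction given here would be turned round. The label's EGFR could not be checked either, since in the authors' deposited table EGFR has reads in 4 of its 9 accessions, without an adjusted p, and a highest base mean of 1.32 (7.89 normalized counts over the 6 libraries). A gene is called changed where the deposited adjusted p is under 0.05. Of markers of other cell types, 6 of 8 for leucocytes are listed at 0 in the authors' deposited table, and 4 of 4 endothelial markers have reads (KDR with a base mean of 556). Only 1 leucocyte, 3 endothelial and 1 epithelial marker were tested. None of these was called, against 23.5% of all tested accessions, and so few cannot show an absence of change. Of 9 glioma and mesenchymal markers, VIM has a base mean of 126476, and GFAP and S100B, markers of astrocytes, are listed at 0. Of the 7 tested, 4 were called in the authors' deposited table, 2 in each direction, against 23.5% of all tested accessions called. In the authors' deposited table CHI3L1, a secreted glycoprotein used as a mesenchymal marker, was at 3.01 on the log2 scale (SE 0.24, adjusted p = 3.35e-34) and NES, an intermediate filament of neural progenitors, at 1.01 (SE 0.12, adjusted p = 1.15e-14). By the authors' deposited table SOX2, a stem cell transcription factor, was at -2.45 (SE 0.30, adjusted p = 2.64e-14) and VIM, a mesenchymal intermediate filament, at -0.29 (SE 0.08, adjusted p = 0.00235). CD44, OLIG2 and FN1 were not called. The part of these marker changes in the values of the NF-kB genes was not tested.

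Only part of the pathway could be read. An adjusted p is given in the authors' deposited table for 21 of the 42 members, 6 have reads but no adjusted p, and 15 are listed at 0 in every accession. All 11 members with 1 accession were tested, against 10 of the 31 members with several accessions. The unread members include much of the core of the pathway. The IRAK kinases IRAK1 and IRAK3, the adaptors TIRAP, TOLLIP, TRAF1, TRAF3 and TRAF6, and the kinases MAP3K7, IKBKB and IKBKE are listed at 0 in the authors' deposited table. So are the subunits REL and RELA, the regulators TNFAIP3 and TNIP2, and the adhesion molecule VCAM1. MYD88, IRAK4, CHUK, NFKB1, NFKB2 and TNIP1 have highest base means from 0.158 for NFKB1 to 0.719 for CHUK in the authors' deposited table, which amounts to 0.951 to 4.31 normalized counts summed over the 6 libraries. A listing at 0 does not show that these genes are silent, and whether any of these 21 genes changed was not detectable. Among all genes of the authors' deposited table, 36.8% of 15501 genes with 1 accession were tested, against 29.95% of 12237 genes with several.

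**Figure D1:**
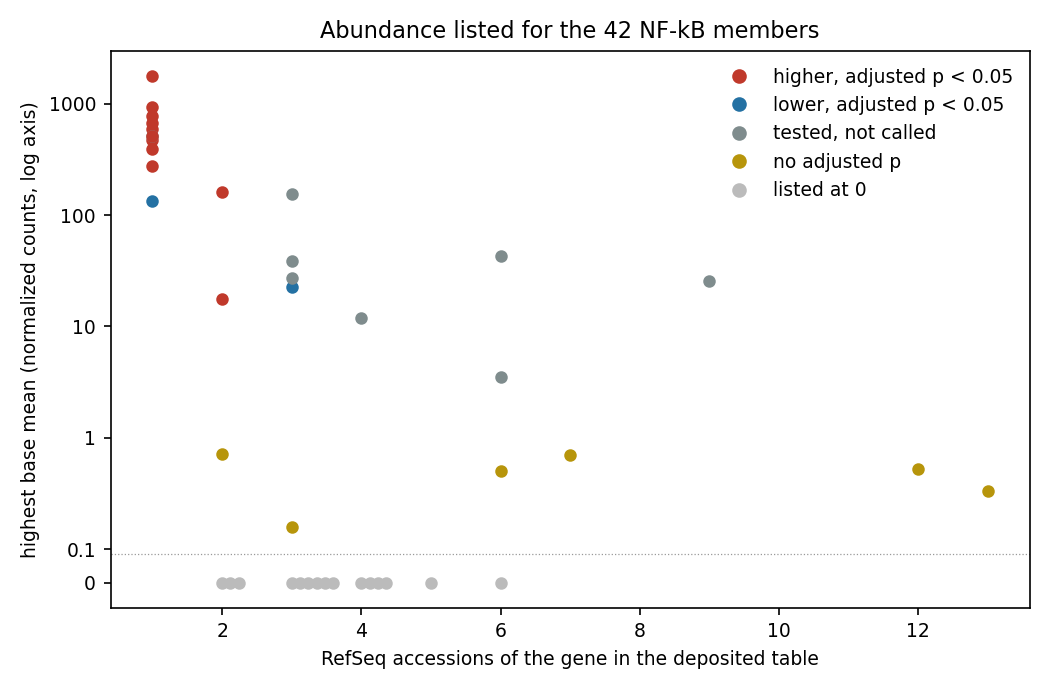
Highest base mean of each of the 42 members (normalized counts, log axis with 0 set apart below the dotted line) against its number of RefSeq accessions, coloured by outcome. All 11 members with 1 accession lie above 100, and the 15 members listed at 0, drawn side by side where they coincide, all have 2 or more accessions.

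Promoters of members that rose are shown first, because the κB element is the DNA sequence through which NF-kB acts. RefSeq promoter windows (GRCh38.p14, 250 bases before to 50 after each annotated start) matched 38 of the 42 members by symbol, all but TIRAP, IKBKB, RELB and NFKBIE. They were searched on both strands for the κB consensus, a motif of 10 bases. Of the 10 members that rose and have a window, 5 hold a match (NFKBIA, BIRC3, NFKBIZ, BCL3 and TICAM1), and their windows are printed 5′ to 3′ in the direction of the gene with each match in capitals. The windows are NFKBIA at chr14:35404700-35404999 (minus strand), BIRC3 at chr11:102317234-102317533 (plus strand), BCL3 at chr19:44748458-44748757 (plus strand), TICAM1 at chr19:4831663-4831962 (minus strand) and, for NFKBIZ, the upstream window of its 2, at chr3:101827740-101828039 (plus strand).
NFKBIA: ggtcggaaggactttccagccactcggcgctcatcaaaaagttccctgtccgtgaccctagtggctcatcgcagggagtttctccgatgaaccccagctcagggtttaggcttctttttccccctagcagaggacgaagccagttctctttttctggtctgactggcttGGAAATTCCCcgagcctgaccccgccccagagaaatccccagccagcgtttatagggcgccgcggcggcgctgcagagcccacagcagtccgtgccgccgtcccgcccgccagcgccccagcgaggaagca
BIRC3: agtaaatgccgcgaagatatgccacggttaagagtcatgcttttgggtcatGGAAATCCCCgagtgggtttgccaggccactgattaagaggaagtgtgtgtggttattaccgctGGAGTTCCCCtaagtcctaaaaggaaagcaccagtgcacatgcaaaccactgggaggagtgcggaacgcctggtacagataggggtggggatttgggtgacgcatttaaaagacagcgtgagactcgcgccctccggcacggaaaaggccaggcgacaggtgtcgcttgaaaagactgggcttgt
BCL3: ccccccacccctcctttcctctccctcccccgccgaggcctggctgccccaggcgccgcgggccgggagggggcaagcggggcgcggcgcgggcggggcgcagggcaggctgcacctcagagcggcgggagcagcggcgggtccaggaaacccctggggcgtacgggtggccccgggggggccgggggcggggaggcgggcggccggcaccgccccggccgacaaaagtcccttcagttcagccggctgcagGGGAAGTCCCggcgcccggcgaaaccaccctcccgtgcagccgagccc
TICAM1: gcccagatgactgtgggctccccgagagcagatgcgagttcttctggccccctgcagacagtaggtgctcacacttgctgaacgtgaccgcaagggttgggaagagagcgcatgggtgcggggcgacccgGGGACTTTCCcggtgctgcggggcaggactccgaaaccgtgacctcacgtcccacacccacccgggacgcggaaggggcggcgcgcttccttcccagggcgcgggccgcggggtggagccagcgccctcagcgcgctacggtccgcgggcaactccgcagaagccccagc
NFKBIZ: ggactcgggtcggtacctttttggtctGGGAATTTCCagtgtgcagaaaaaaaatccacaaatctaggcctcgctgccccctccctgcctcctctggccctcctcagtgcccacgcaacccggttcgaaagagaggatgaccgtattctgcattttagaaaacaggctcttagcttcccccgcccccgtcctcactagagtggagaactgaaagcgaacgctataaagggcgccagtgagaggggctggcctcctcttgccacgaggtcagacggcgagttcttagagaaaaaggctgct

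In these windows the match begins 81 bases before the start in NFKBIA, 199 and 135 bases before it in BIRC3, 120 bases before it in TICAM1 and 223 bases before it in NFKBIZ. In BCL3 the match begins at base 3 of the transcribed part. The second NFKBIZ window also holds 1 match. Matches also occur in members that could not be read or were not called: 4 of 7 tested members that were not called (TAB2, MAP3K8, NFKBIB and CYLD), 6 of 13 listed at 0 and 3 of 6 without an adjusted p hold at least 1. The other members that rose and have a window, TNFAIP2, MAP3K14, ICAM1, TRAF2 and IRAK2, hold no match. Neither member that fell, TNFAIP6 and BIRC2, has a match in its windows. Over all members 18 of 38 genes (47.4%) hold a match, against 13.3% of 27305 genes of the promoter table and 16.0% of 7188 genes with an adjusted p. Counted by window, because members have more windows per gene, the shares are 37.1% of 62, 11.3% of 35116 and 13.2% of 9589. The list was drawn up to include known NF-kB targets, so a higher share describes that choice and was not tested. Overlapping matches, such as those on opposite strands in NFKBIB, were counted once per gene here. The members' windows are also richer in G and C, with a median of 69.0% against 58.7% over all windows and 64.7% over those of genes with an adjusted p. Among all genes called higher, 14.9% of 902 hold a match, and among all called lower 15.2% of 902. A match is a description of the letters and does not show binding, and κB sites that differ from the consensus or lie outside the window are not seen.

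**Figure D2:**
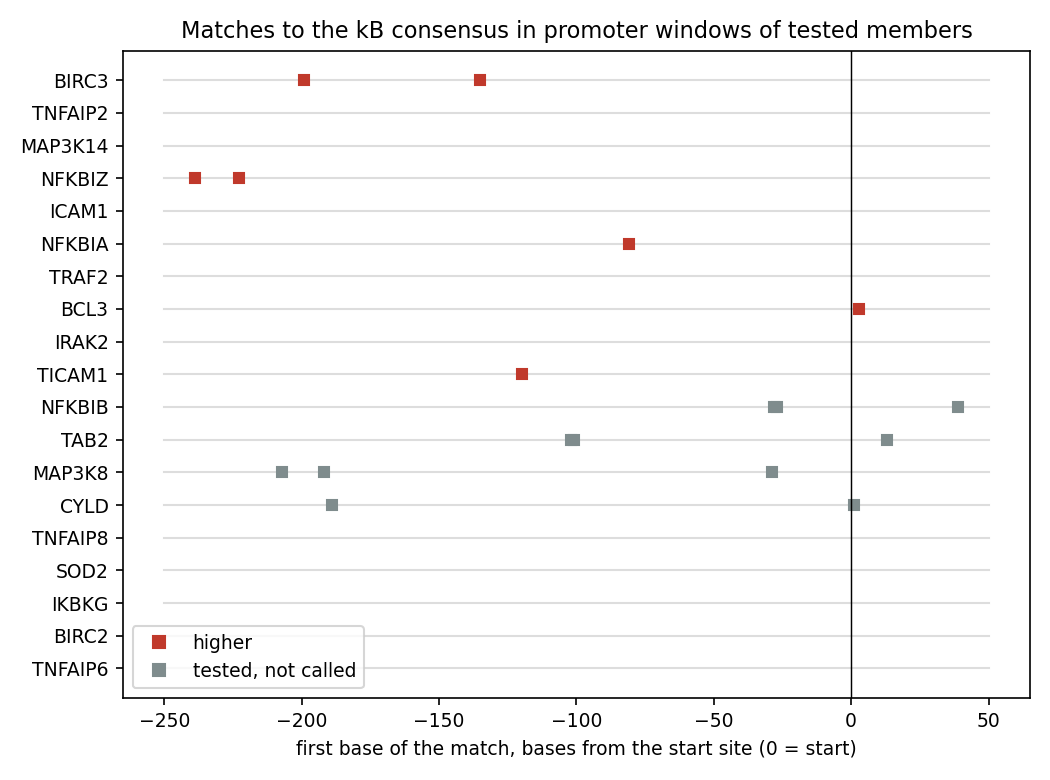
Position of each match to the κB consensus (squares, first base in bases from the start site) in the windows of the 19 tested members that have any, ordered by log2 fold change from the largest rise (top) to the largest fall (bottom) and coloured by outcome. Windows of genes with several starts are drawn on the same line, and matches occur both in members that rose and in members that were not called.

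Among the members that could be tested, more were called higher than lower in the knockout. By the authors' deposited table, 11 of 21 tested members were called higher, 2 lower and 8 not called, so 61.9% were called, against 23.5% of 10303 tested accessions (11.6% higher and 11.9% lower). The median log2 fold change of the tested members was 0.43, against 0.02 over all tested accessions, and 15 of 21 were above 0, against 51.8% of accessions. Abundant accessions are called more often, and 13 of the 21 tested members have a base mean of at least 100, against 4308 of the 10303 accessions. With that base mean, 11 of 13 members were called, 10 higher and 1 lower, against 43% of such accessions (19.9% higher and 23.1% lower). Among genes with 1 accession, 9 of 11 members were called higher and 1 lower, against 34% called (17% higher and 17% lower) of 5707 genes. Among genes with several accessions, 3 of 10 members were called (BIRC3, NFKBIZ and BIRC2), against 11.3% of 3665 genes. Members of the list were chosen with earlier results of these data known, so these counts describe the list and no test was made of it.

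**Figure D3:**
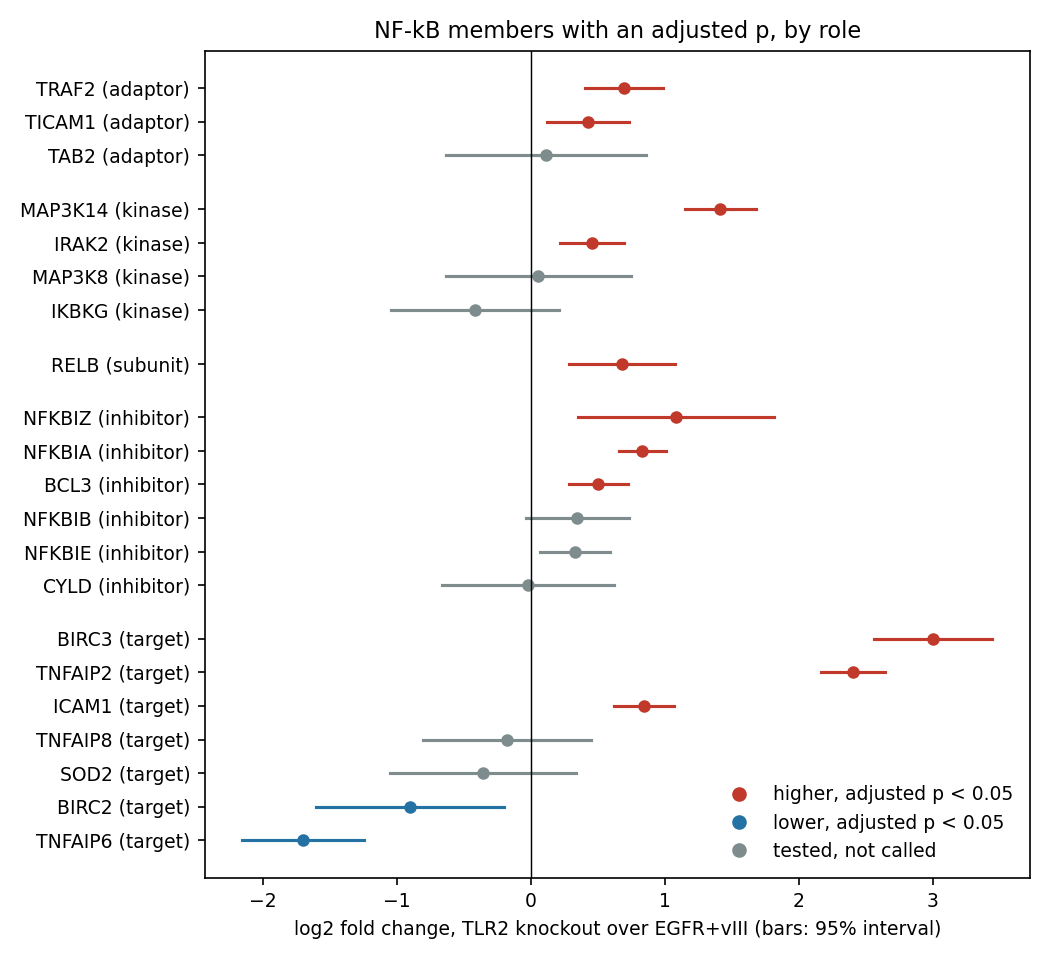
Log2 fold change, knockout over EGFR+vIII, of the 21 members with an adjusted p (points), with 95% intervals (bars), grouped by role. BIRC3 (8.01-fold higher), TNFAIP2 (5.28-fold) and MAP3K14 (2.66-fold) lie farthest to the right and TNFAIP6 (3.25-fold lower) farthest to the left.

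Of 3 tested adaptors, 2 were called higher in the knockout, against 11.6% of all tested accessions. TRAF2, a ubiquitin ligase that links receptors to the IκB kinases and restrains the non-canonical arm, rose 1.62-fold in the authors' deposited table (log2 fold change 0.69, SE 0.15, adjusted p = 2.78e-05). The base mean of 516 and this fold imply about 638 normalized counts per knockout library and 394 per EGFR+vIII library. TICAM1, the adaptor of TLR3 and TLR4 that reaches both NF-kB and interferon factors, was at 0.43 on the log2 scale (SE 0.16, adjusted p = 0.0295, from the authors' deposited table). On chromosome 19, the 10 nearest tested genes on each side of TICAM1 had a median of 0.29, and relative to them the log2 fold change of TICAM1 was 0.13 (adjusted p = 0.62). Its adjusted p was 0.0518 when every accession with a p entered the adjustment. TAB2, which bridges ubiquitin chains to the kinase MAP3K7, was at 0.11 on the log2 scale (SE 0.38, adjusted p = 0.898) on 72.1 normalized counts over the 6 libraries in the authors' deposited table, too few to show a change of this size.

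Of 4 tested kinases and kinase-complex components, 2 were called higher and 0 lower, against 11.6% and 11.9% of all tested accessions. Among these 4, MAP3K14 changed most. MAP3K14, the NF-kB inducing kinase that starts the non-canonical arm, is encoded at positions 45263119 to 45317020 of chromosome 17 (GRCh38) and rose 2.66-fold in the authors' deposited table (95% interval 2.22 to 3.19, adjusted p = 1.75e-24). Its base mean of 471 and this fold imply about 684 normalized counts per knockout library and 257 per EGFR+vIII library. Neighbouring genes had a median log2 fold change of 0.33, and relative to them that of MAP3K14 was 1.08. IRAK2, a kinase that sustains signalling from MYD88, rose 1.37-fold (log2 fold change 0.45, SE 0.12, adjusted p = 0.00152, from the authors' deposited table), with about 683 implied normalized counts per knockout library and 499 per EGFR+vIII library. MAP3K8, a kinase that couples the pathway to ERK, was at 0.05 on the log2 scale (SE 0.35, adjusted p = 0.947, from the authors' deposited table). IKBKG, the regulatory component of the IκB kinase complex, was at -0.42 (SE 0.32, adjusted p = 0.408) on a base mean of 3.55 in the authors' deposited table. IKBKG has a near-identical pseudogene copy with which it can share reads, and its value is uncertain.

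RELB is the only subunit of the transcription factor with an adjusted p. RELB, the partner of NFKB2 in the non-canonical dimer and itself an NF-kB target, rose 1.60-fold in the authors' deposited table (95% interval 1.22 to 2.10, log2 fold change 0.68, SE 0.20, adjusted p = 0.00479). The implied levels are about 338 normalized counts per knockout library and 211 per EGFR+vIII library. Grouped after their values were seen, the 8 members of the non-canonical arm (MAP3K14, RELB, NFKB2, TRAF2, TRAF3, BIRC2, BIRC3 and CHUK) include 5 that could be tested in the authors' deposited table, of which 4 rose and BIRC2 fell, against 11.6% of all tested accessions called higher and 11.9% lower. The call of BIRC2 was lost in 4 of the alternatives. The arm's remaining members, NFKB2, TRAF3 and CHUK, could not be read.

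Of 6 tested inhibitors and regulators, 3 of the IκB family were called higher and 0 lower, against 11.6% and 11.9% of all tested accessions. NFKBIA (chromosome 14, 35401513 to 35404749, GRCh38), the classical IκB that NF-kB induces and that returns the dimer to the cytoplasm, rose 1.78-fold in the authors' deposited table (95% interval 1.58 to 2.01, adjusted p = 3.91e-19). It is the most abundantly counted member, and its base mean of 1781 with this fold implies about 2280 normalized counts per knockout library and 1283 per EGFR+vIII library. BCL3, a nuclear IκB protein that can act as a coactivator, rose 1.42-fold (log2 fold change 0.50, SE 0.11, adjusted p = 8.74e-05, from the authors' deposited table). NFKBIZ, an inducible nuclear IκB protein that serves a subset of secondary targets, rose 2.11-fold (95% interval 1.27 to 3.51, adjusted p = 0.019, from the authors' deposited table), on only 107 normalized counts over the 6 libraries.

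NFKBIE, an IκB protein induced by NF-kB, was at 0.33 on the log2 scale (SE 0.13, adjusted p = 0.0556, from the authors' deposited table) and passed when only accessions with a base mean of at least 100 were tested (0.0304) and relative to neighbouring genes (0.0133). NFKBIB, an IκB protein, was at 0.34 (SE 0.20, adjusted p = 0.224, from the authors' deposited table), on the only 1 of its 3 accessions with reads. That accession is a noncoding transcript of the gene, and its coding transcripts are listed at 0. CYLD, a deubiquitinase that dampens the pathway, was at -0.02 (SE 0.33, adjusted p = 0.976, from the authors' deposited table). For CYLD the 95% interval of the fold, 0.629 to 1.54, leaves room for a change in either direction. Deposited folds of rarely counted genes are understated, so this interval does not bound the size of a change.

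**Figure D4:**
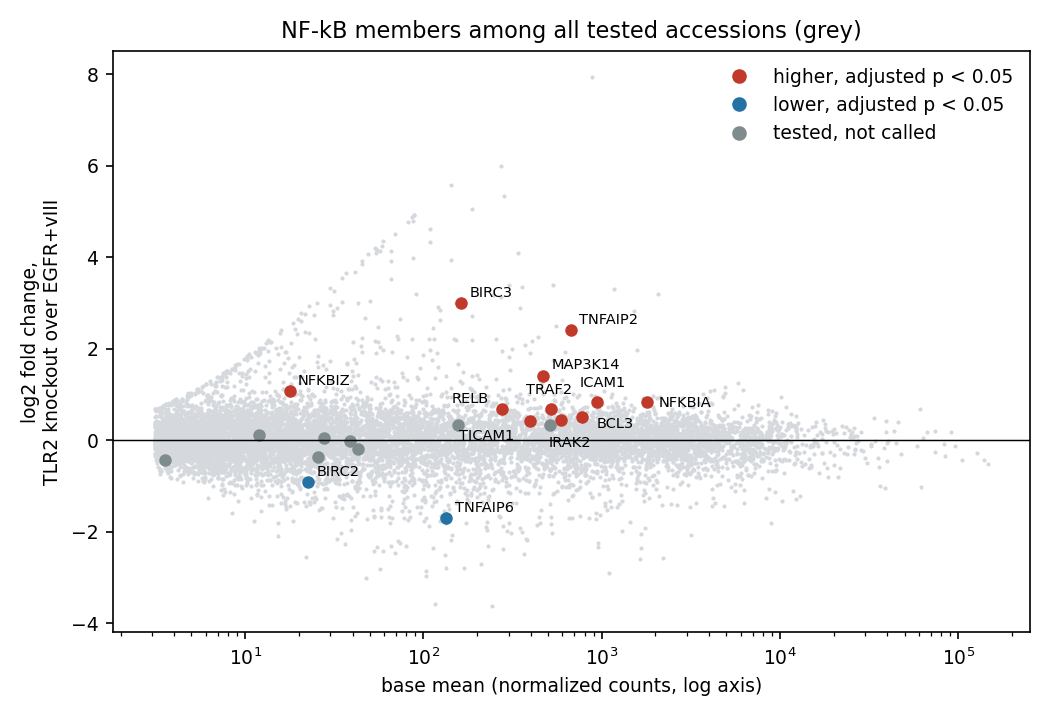
Log2 fold change, knockout over EGFR+vIII, against base mean (normalized counts, log axis) for the 10303 tested accessions (grey) and the 21 tested members (coloured by outcome, called members named). Most of the members that rose lie at base means above 100 and between 0.43 and 0.85 in log2 fold change, with BIRC3, TNFAIP2 and MAP3K14 well above them.

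Of 7 further target genes tested, 3 were called higher and 2 lower, against 11.6% and 11.9% of all tested accessions. Their median log2 fold change was -0.18, and they hold the largest changes of the list. BIRC3, an inhibitor of apoptosis and ubiquitin ligase that NF-kB induces, rose 8.01-fold in the authors' deposited table (SE 0.23 on the log2 scale, adjusted p = 1.67e-38), the 46th largest of 9372 tested genes. Its base mean of 162 and this fold imply about 288 normalized counts per knockout library and 36.0 per EGFR+vIII library. BIRC3 was read from 1 of its 2 accessions, with the other listed at 0. BIRC2, the close paralog next to it on chromosome 11 with 7810 bases between them, was at -0.91 on the log2 scale (SE 0.36, adjusted p = 0.0486, from the authors' deposited table). BIRC2 was read from 1 of its 3 accessions with 136 normalized counts over the 6 libraries, and its adjusted p was 0.0854 when every accession with a p was included in the adjustment. The 95% intervals of the fold do not overlap, 5.90 to 10.9 for BIRC3 and 0.328 to 0.868 for BIRC2. Genes around the pair had medians of -0.06 and 0.03, and relative to its neighbours BIRC3 was at 3.06 on the log2 scale.

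TNFAIP2, a membrane-remodelling protein first found as a gene induced by tumour necrosis factor, rose 5.28-fold in the authors' deposited table (95% interval 4.48 to 6.23, adjusted p = 1.55e-84). Its base mean of 671 and this fold imply about 1128 normalized counts per knockout library and 213 per EGFR+vIII library. ICAM1, an adhesion molecule for leucocyte integrins, rose 1.80-fold (95% interval 1.54 to 2.10, adjusted p = 3.13e-12, from the authors' deposited table), with about 1201 implied normalized counts per knockout library and 668 per EGFR+vIII library. TNFAIP6, a secreted hyaluronan-binding protein that dampens inflammation and is also induced by tumour necrosis factor, went the other way, at -1.70 on the log2 scale (SE 0.23, adjusted p = 6.16e-12, from the authors' deposited table). TNFAIP6 was thus 3.25-fold lower in the knockout, at about 63.2 implied normalized counts per library against 206 in EGFR+vIII libraries. It ranked 71st from the lowest of 9372 genes, beside TNFAIP2 at rank 72 from the highest.

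TNFAIP8, a regulator of cell death, was at -0.18 on the log2 scale (SE 0.32, adjusted p = 0.778, from the authors' deposited table). SOD2, the mitochondrial superoxide dismutase and a frequent NF-kB readout, was at -0.36 (SE 0.36, adjusted p = 0.559) on its most abundant accession in the authors' deposited table. A second accession of SOD2, with a base mean of 5.53, had 0.70 (adjusted p = 0.134), so no direction can be given for SOD2.

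Among the tested members, those with a base mean under 100 have the widest errors. The 6 members with reads but no adjusted p have smaller SEs, from 0.138 for IRAK4 and NFKB1 to 0.154 for CHUK. All 8 tested members with a base mean under 100 have an SE from 0.32 to 0.38 on the log2 scale. Of these 8, 2 (NFKBIZ and BIRC2, 25%) were called, against 23.5% of all tested accessions at any base mean. That comparison is not like for like. The share was 43% among accessions with a base mean of at least 100, so under 100 it was below 23.5%. The calls of TICAM1, TRAF2, IRAK2, RELB, NFKBIZ, BCL3 and BIRC2 were lost with Wald scores divided by the spread of their central part. Their adjusted p then ran from 0.0768 for TRAF2 to 0.638 for BIRC2. That left 6 of 21 tested members called, against 8.64% of all tested accessions. Of the 21 tested members, 4 (BIRC3, TNFAIP2, MAP3K14 and TNFAIP6) also passed against a null of up to 1.5-fold, which 3.96% of all tested accessions passed. Gene spans overlap for several members, among them MAP3K14 with an antisense gene that is listed at 0 and ICAM1 with the noncoding genes LIMASI and ICAM4-AS1, and the strand setting of the counting is not given in the sources used here.

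Members lie on many chromosomes. Of the 21 tested members, 5 (TICAM1, RELB, NFKBIB, BCL3 and ICAM1) lie on chromosome 19, where the median log2 fold change of 604 tested genes was 0.05, and 3 (TAB2, NFKBIE and SOD2) lie on chromosome 6, with a median of 0.11 over 445 genes. Relative to the 10 nearest tested genes on each side, ICAM1 had a log2 fold change of 0.69, RELB 0.70 and BCL3 0.54. On that scale 13 members were called, 11 higher and 2 lower, with TICAM1 lost and NFKBIE gained, against 25.1% of 9372 tested genes (11.9% higher and 13.2% lower).

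The share called among the pathway's other components was near that of all accessions. Of 35 further pathway genes (adaptors, ubiquitin machinery, kinases and cofactors), 22 were tested in the authors' deposited table, 4 were called higher and 0 lower, with a median log2 fold change of 0.21. The share called was 18.2%, against 23.5% of all accessions, and among those with 1 accession it was 4 of 11, against 34% of such genes. The 4 were TRAF4 (0.89, SE 0.14), a TRAF family adaptor, TAB3 (0.33, SE 0.09), a relative of TAB2, CARD10 (0.31, SE 0.11), a scaffold that links receptors to the IκB kinases, and CUL1 (0.20, SE 0.08), a scaffold of the ligase that degrades IκB, all log2 fold changes from the authors' deposited table. The kinases TBK1 (0.21, adjusted p = 0.165) and RIPK2 (0.07, adjusted p = 0.617), though well counted, were not called in the authors' deposited table.

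Of 50 further known NF-kB targets, 29 were tested in the authors' deposited table, 16 were called higher and 1 lower, with a median log2 fold change of 0.57. Called genes made up 58.6% of those tested, against 23.5% of all accessions (11.6% higher and 11.9% lower). Among targets with 1 accession, 15 of 20 were called, against 34% of such genes. The largest rises were the chemokines CXCL5 (4.15, SE 0.34), CXCL10 (2.71, SE 0.21) and CXCL8 (1.96, SE 0.19), the complement component C3 (3.30, SE 0.13) and the tumour necrosis factor receptor TNFRSF1B (2.33, SE 0.12), all log2 fold changes from the authors' deposited table. PTX3, a secreted pattern recognition protein, was lower, at -0.37 on the log2 scale (SE 0.09, adjusted p = 0.000395, from the authors' deposited table). Well counted targets that were not called include IL1B, at 0.07 (SE 0.08, adjusted p = 0.643), PTGS2, the inducible prostaglandin synthase, at -0.10 (SE 0.15, adjusted p = 0.718), and VEGFC, a growth factor of lymphatic vessels, at 0.11 (SE 0.08, adjusted p = 0.398), all log2 fold changes from the authors' deposited table. Relative to neighbouring genes 14 of the 29 tested targets were called, all higher, against 25.1% of all tested genes (11.9% higher). CXCL2 (adjusted p = 0.116), CXCL3 (0.0707) and PTX3 (0.166) lost their call. On the same scale 6 of the 22 tested other pathway genes (27.3%) were called, near the 25.1% of all tested genes. CUL1 (adjusted p = 0.0804) and CARD10 (0.414) were lost, and RIPK2, NKIRAS1, OTULIN and TNIP3 were gained. These further targets were chosen with earlier results of these data known, as were the members.

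**Figure D5:**
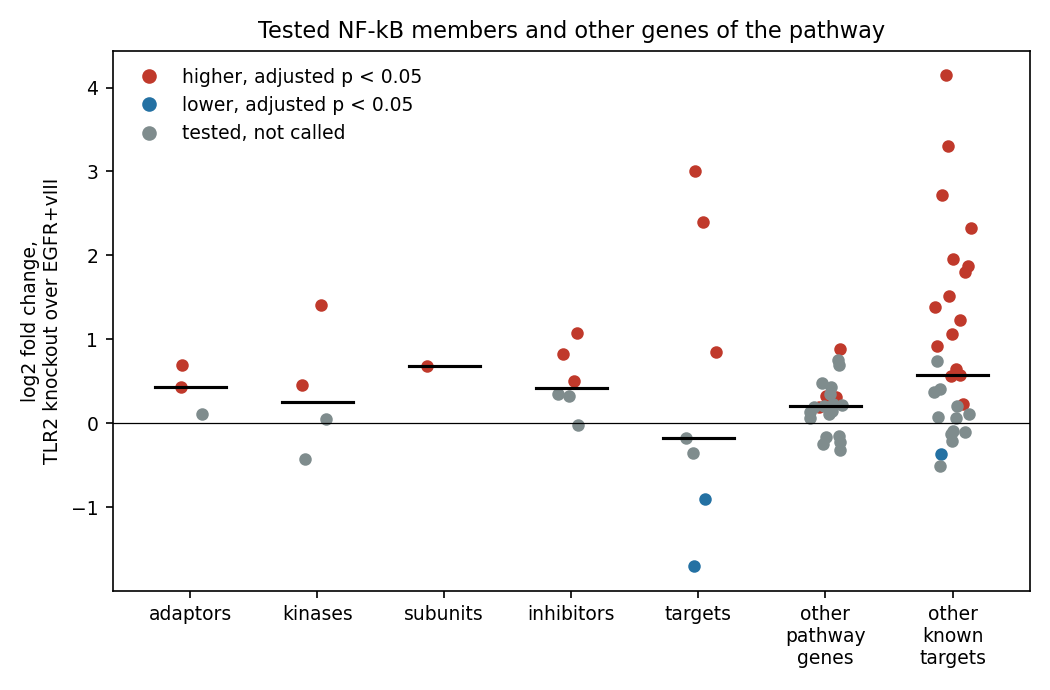
Log2 fold change, knockout over EGFR+vIII, of the tested members by role and of the tested genes of the 2 further lists (points, coloured by outcome, with black bars for the median). Of the tested adaptors (3), kinases (4), subunit (1) and inhibitors (6), 0 were called lower, against 11.9% of all tested accessions. With so few members tested, the absence of lower calls does not show a direction shared by these roles. The targets spread from TNFAIP6 (3.25-fold lower) to BIRC3 (8.01-fold higher).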

How the data were processed

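RNA of U87 cells was sequenced in 6 libraries, 3 per group by the cell type in the labels. The submitters' processing notes list STAR, DESeq2 and hg38 with no version; for the counter, strandedness and annotation, nothing is given in the sources used here. Per the file headers, the authors deposited a base mean per RefSeq accession, used as a signal of abundance, and a log2 fold change with its SE on the log2 scale. The deposited Wald score equals the fold change over its SE (largest gap 5.39e-07), and the deposited adjusted p-value is a Benjamini-Hochberg adjustment over 10303 accessions with base means of at least 3.11. The largest deposited SE at any count is 0.38, and near 0 counts the SE is smaller, such as 0.138 for NFKB1. Shrunken fold changes give such SEs, so folds of rarely counted accessions are understated. Depth per library is not stated; the base means sum to 11240272.

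Accessions were matched to genes by RefSeq (GRCh38.p14), 98.8% of 67933. A count test per library, the design for the case of counts, could not be run, so the authors' deposited DESeq2 adjusted p was used, as the design allowed. Intervals are 95% normal intervals from the deposited SE, and at low counts they do not bound the size of a change, since the folds there are understated. Levels per group were computed from the base mean and the fold for 3 libraries a group, and are approximate. The members, lists and roles were chosen with earlier results of these data known. All members are named, with values for those tested, and for the 2 further lists the 5 largest called changes in each direction; others named there were chosen after their values were seen. Alternatives changed the null, the scaling, the adjustment, the accession, the abundance filter, the threshold and the neighbour correction, and the tests were tested on simulated data (Python 3.11.15, scipy 1.17.1).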

Additional observations from a re-analysis of the deposited data

How the results depend on the processing

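No paired analysis was possible because the deposited table holds no value per library; for the same reason no library was left out in turn and edgeR was not run. The counts of called members (13, with 11 higher and 2 lower) were 4, 3 and 1 against a null of up to 1.5-fold and 6, 5 and 1 with Wald scores scaled by their central spread of 1.75. The count lower was also 1 with a base mean of at least 100, without the filter on low base means, at a threshold of 0.01 and among genes with 1 accession, since BIRC2 was then lost or not tested. The median log2 fold change of tested members (0.43) was 0.68 with a base mean of at least 100 and among genes with 1 accession, and 0.13 without the filter, where members with almost no counts enter. The 4 other pathway genes called became 0 beyond 1.5-fold, 1 with scaled scores and 2 at 0.01, and the 17 other targets became 7, 7 and, at a base mean of at least 100, 9 of 14 tested. The 3 directions that reversed belong to genes that were never called: CYLD, at 0.10 relative to neighbours, and SOD2, at 0.70 with its accession of smallest SE or smallest p. BIRC3, TNFAIP2, MAP3K14 and TNFAIP6 kept their call in each alternative that tested them; BIRC3, with 2 accessions, was not among the genes with 1 accession. The counts of other pathway genes relative to neighbours and at a base mean of at least 100 were 6 each, of 22 and 14 tested. Relative to neighbours, 25.1% of all tested genes were called.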
